A study of Mus musculus with 36 samples.

Results

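Peaks of H3K9ac and H3K27ac, the acetylated forms of lysines 9 and 27 of histone H3, were examined over 5 genes that encode calcium/calmodulin-dependent protein kinases, Camk2a, Camk2b, Camk2d, Camk2g and Camk4, out of 21887 mouse protein-coding genes. The genes were chosen by name, and every peak that touched the gene body or the 10 kb on either side of it was taken as belonging to the gene. The tissue was dorsal hippocampus of male mice aged 8 weeks, taken from each mouse separately. All mice had a viral vector injected into the dorsal hippocampus. The knockdown groups received an AAV2/9 vector with the U6 promoter driving a short hairpin RNA against ACSS2 and the CMV promoter driving EGFP. The control groups received a control vector whose content the labels do not state. Each vector group was either left untreated or given ethanol intraperitoneally at 2 g per kg. Untreated mice are not described as having had a saline injection, so ethanol and the injection itself cannot be told apart. ACSS2 is the enzyme that makes acetyl-CoA, the donor of histone acetylation, from acetate, and acetate is what ethanol is oxidised to. The hairpin acts on messenger RNA, so histone peaks do not check the knockdown. Chromatin immunoprecipitation with sequencing gave 8 deposited lists of peaks, with 1 list per mark and condition that stands for 3 replicates. No value per replicate was at hand, so no difference below has a replicate error, a test or a p-value, and each is set beside the same quantity over all genes.

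Calcium that enters a neuron binds calmodulin, and the complex switches these kinases on. CaMKII is a large ring-like holoenzyme built from alpha, beta, gamma and delta subunits, the products of Camk2a, Camk2b, Camk2g and Camk2d. The alpha and beta subunits are the main forms in forebrain neurons, where the kinase is among the most abundant proteins of the postsynaptic density and is needed for long-term potentiation, while gamma and delta are made in many tissues. CaMKIV, from Camk4, works as a monomer, is found largely in the nucleus, is itself switched on by CaMK kinases and phosphorylates the transcription factor CREB. H3K9ac marks mainly active promoters, and H3K27ac marks active promoters and enhancers.

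Promoter sequences were available for 2 of the 5 genes, Camk2b and Camk2d, and are shown because the strongest peaks of both genes lie over or beside them and peaks were split at both start sites. Each window runs from 250 bases before to 50 bases after the RefSeq transcription start site in GRCm38.p6. For Camk2b it is chr11:6065699-6065998 on the minus strand, and for Camk2d chr3:126596701-126597000 on the plus strand. Letters are 5′ to 3′ on the gene's strand, and capitals mark the GC box GGGCGG on either strand (CCGCCC when it lies on the other strand).
Camk2b promoter: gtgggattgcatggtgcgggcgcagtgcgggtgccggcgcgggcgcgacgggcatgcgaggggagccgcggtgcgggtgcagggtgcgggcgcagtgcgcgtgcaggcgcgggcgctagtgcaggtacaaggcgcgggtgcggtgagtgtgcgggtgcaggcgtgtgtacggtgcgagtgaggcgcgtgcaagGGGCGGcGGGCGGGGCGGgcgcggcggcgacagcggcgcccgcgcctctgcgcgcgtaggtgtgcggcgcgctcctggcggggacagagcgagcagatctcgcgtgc
Camk2d promoter: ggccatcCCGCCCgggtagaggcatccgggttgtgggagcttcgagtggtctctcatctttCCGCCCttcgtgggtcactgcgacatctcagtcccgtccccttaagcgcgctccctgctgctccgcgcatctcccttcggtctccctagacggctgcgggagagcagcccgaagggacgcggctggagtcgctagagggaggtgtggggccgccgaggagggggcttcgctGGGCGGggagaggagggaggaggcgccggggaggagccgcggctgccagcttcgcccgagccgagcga

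Both windows were rich in G and C, at 77.3% for Camk2b and 70.3% for Camk2d against a median of 56.3% over 21263 promoters. Camk2b held 51 CG dinucleotides and Camk2d 31, where the median promoter held 13. Each window held 3 GC boxes, and 2 of those of Camk2b overlap by 1 base. A GC box was present in 46.2% of all promoter windows of this length. Neither the full cyclic AMP response element TGACGTCA, held by 2.23% of promoters, nor the shorter core TGACG, held by 23.6%, was among these letters. The start site of Camk2b lies 609 bp inside the gene's upper end by coordinate and fell in a gap between peaks in all 8 lists. For H3K9ac the gap measured 244 bp in untreated control mice, 343 bp with ethanol, 338 bp in untreated knockdown mice and 240 bp in knockdown mice with ethanol. For H3K27ac it measured 144, 236, 202 and 173 bp in the same order. A start site without a peak but with peaks within 500 bp on both sides was seen in all 8 lists for 668 of the 21263 promoters, or 3.14%. The start site of Camk2d lay inside a peak in 7 lists and in a gap of 318 bp in H3K9ac of ethanol-treated control mice. In that list 124 of the 300 promoter bases were in H3K9ac peaks, against all 300 in each of the other 3 H3K9ac lists.

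Over the genome, the H3K9ac lists held 31042 to 42120 peaks covering 16.1 to 24.1 Mb, and the H3K27ac lists 86110 to 119317 peaks covering 38.1 to 57.4 Mb. For both marks the list of ethanol-treated control mice was the shortest and that of ethanol-treated knockdown mice the longest. Depth is unknown, since the labels give no read numbers, and deeper sequencing alone can lengthen a list. For the tissue label, H3K27ac peaks were present over 5 of 5 hippocampal and excitatory neuron markers (Slc17a7, Neurod6, Prox1, Snap25 and Rbfox3) in all 4 lists, with 61098 to 121330 bases summed over the genes. Rbfox3 supplied 37826 to 89150 of these and Neurod6 358 to 1087. H3K9ac was present over 4 of the 5 in every list, and Neurod6 had none in ethanol-treated control mice. Of 3 inhibitory neuron markers, 2 had both marks in every list, and Gad2 had no H3K9ac in any list. Oligodendrocyte markers were covered too, 3 of 3 for both marks in every list, with 41584 to 48480 bases of H3K27ac. Of 3 microglial markers, 2 had no H3K9ac in any list, with sums of 0 to 226 bases, and H3K27ac over them came to 1201 to 2565 bases. Of 6 genes of other tissues, 4 had no H3K9ac and 3 had no H3K27ac in any list. Their sums were still 1147 to 1944 bases of H3K9ac and 3091 to 5617 of H3K27ac, above those of the microglial markers. Of these, the heart gene Myh6 supplied 796 to 1527 and 2215 to 4139.

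The 5 kinase genes fell into 3 levels of acetylation when the bases in peaks were expressed as a share of the gene with its flanks. A gene whose peaks sit at one end has a smaller share the longer it is, which bears on Camk2d and Camk4. Camk2a and Camk2b were the most heavily covered, with H3K27ac over 24.0% to 42.9% of Camk2a and 21.1% to 37.6% of Camk2b. These shares placed Camk2a at percentile 97.4 to 99.3 and Camk2b at percentile 96.3 to 98.7 of all protein-coding genes. Camk2g followed with 10.6% to 19.3% and percentiles 86.3 to 91.7. Camk2d and Camk4, 250.8 and 260.8 kb long, stayed under 1% in every list, at percentiles 31.1 to 35.6 and 30.8 to 34.9. H3K9ac gave narrower shares: 4.62% to 16.5% of Camk2a, 2.86% to 7.82% of Camk2b, 3.62% to 6.92% of Camk2g, 0.389% to 0.768% of Camk2d and 0.339% to 0.578% of Camk4. The median gene had H3K9ac over 1.25% to 1.94% and H3K27ac over 2.30% to 3.16% of its span. Camk2a came first and Camk2b next for H3K27ac in all 4 lists, whereas for H3K9ac Camk2g stood above Camk2b in both control-vector lists and below it in both knockdown lists. The Camk2g bases include a peak mostly over the neighbouring gene Ndst2. It supplied 1506 of 5483 bases in untreated control mice and 1351 of 2870 with ethanol, so this order does not describe Camk2g alone.

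Over the 4 lists of a mark, each gene had its fewest bases in peaks in ethanol-treated control mice, for 5 of 5 genes with H3K9ac and 5 of 5 with H3K27ac. That list was also the lowest for 81.1% of all genes with H3K9ac and for 48.5% with H3K27ac, among genes with at least 1000 bases in peaks in some list. The most bases were in ethanol-treated knockdown mice for 4 of 5 kinase genes with H3K9ac and 5 of 5 with H3K27ac, against 45.2% and 72.6% of all genes. Camk2g was the exception, with its most H3K9ac in untreated control mice. These are also the lists with the smallest and the largest totals, so the total of each list is given beside the comparisons below.

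**Figure D1:**
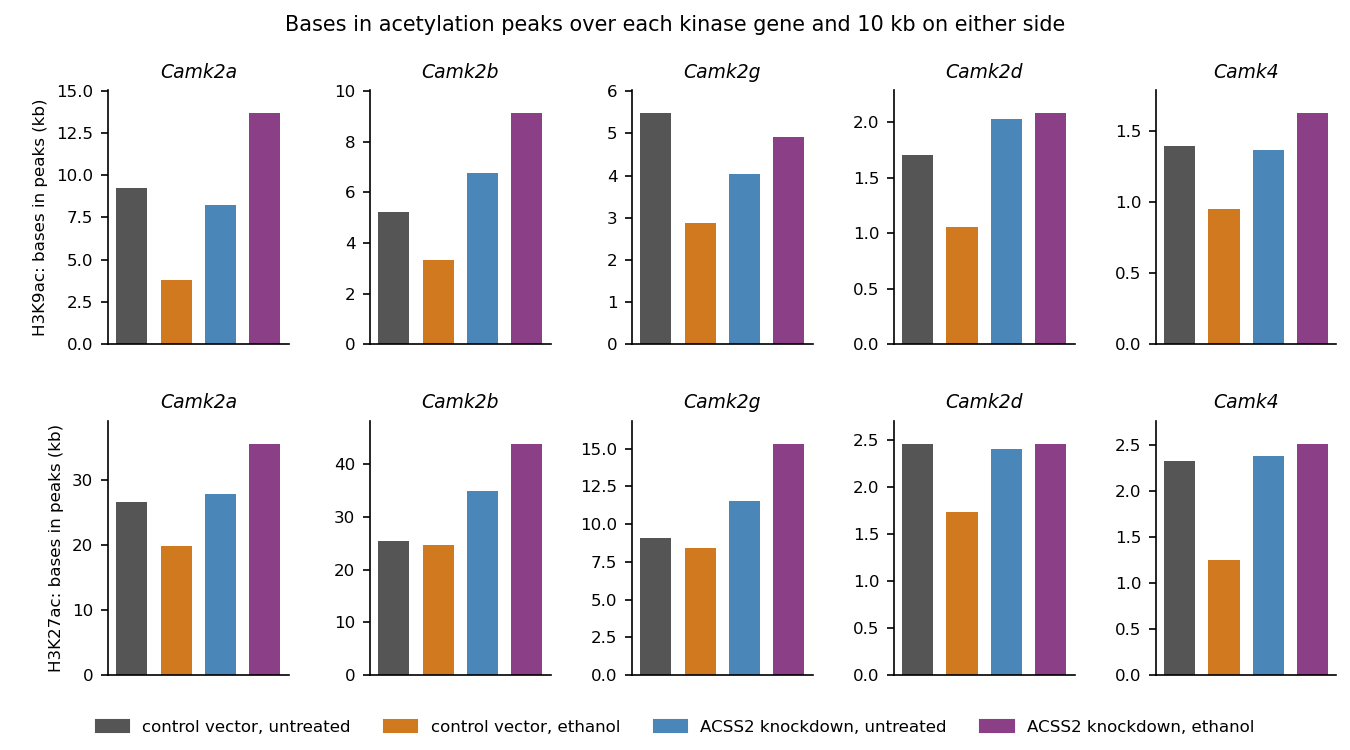
Bars give the bases in H3K9ac (upper row) and H3K27ac (lower row) peaks in kb over each gene and 10 kb on either side, 1 bar per deposited list and with a scale of its own for each panel. The bar of ethanol-treated control mice is the lowest in all 10 panels, from 952 bases for H3K9ac at Camk4 to 24653 for H3K27ac at Camk2b.

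Camk2a, the alpha subunit gene, is 62.8 kb long (chr18:60925307-60988152, GRCm38). It carried 9264 bases of H3K9ac in 20 peaks in untreated control mice, 3831 in 9 peaks with ethanol, 8250 in 24 peaks in untreated knockdown mice and 13666 in 22 peaks in knockdown mice with ethanol. The list of ethanol-treated control mice was the low one and that of ethanol-treated knockdown mice the high one. H3K27ac covered 26572, 19891, 27915 and 35570 bases in the same order. A dense block of peaks began at the lower end of the gene and ran into its first 10 kb, and narrower peaks were scattered over the rest. The first 10 kb held 5520 bases of H3K9ac in untreated control mice, 3453 with ethanol, 5151 in untreated knockdown mice and 6372 in knockdown mice with ethanol. Inside the gene beyond the first 10 kb the corresponding numbers were 3744, 378, 3099 and 6825. In ethanol-treated control mice 90.1% of the H3K9ac bases of the gene therefore lay in its first 10 kb, compared with 59.6%, 62.4% and 46.6% in the other lists. The peak at the lower end itself was 1372 bp wide in untreated control mice. It measured 1299 and 1382 bp in knockdown mice without and with ethanol, and was split into pieces of 935 and 193 bp in control mice with ethanol. The next peak inwards was 2168 bp wide in untreated control mice and reached 3113 bp in knockdown mice with ethanol. H3K27ac alone extended below the gene: the 10 kb under the lower end held 6124, 5756, 7843 and 8476 bases of H3K27ac, while H3K9ac there was 0 in 3 lists and 469 bases in knockdown mice with ethanol. The protein-coding gene Arsi lies in that stretch, at 60911991 to 60919506, so this H3K27ac cannot be assigned to Camk2a alone.

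**Figure D2:**
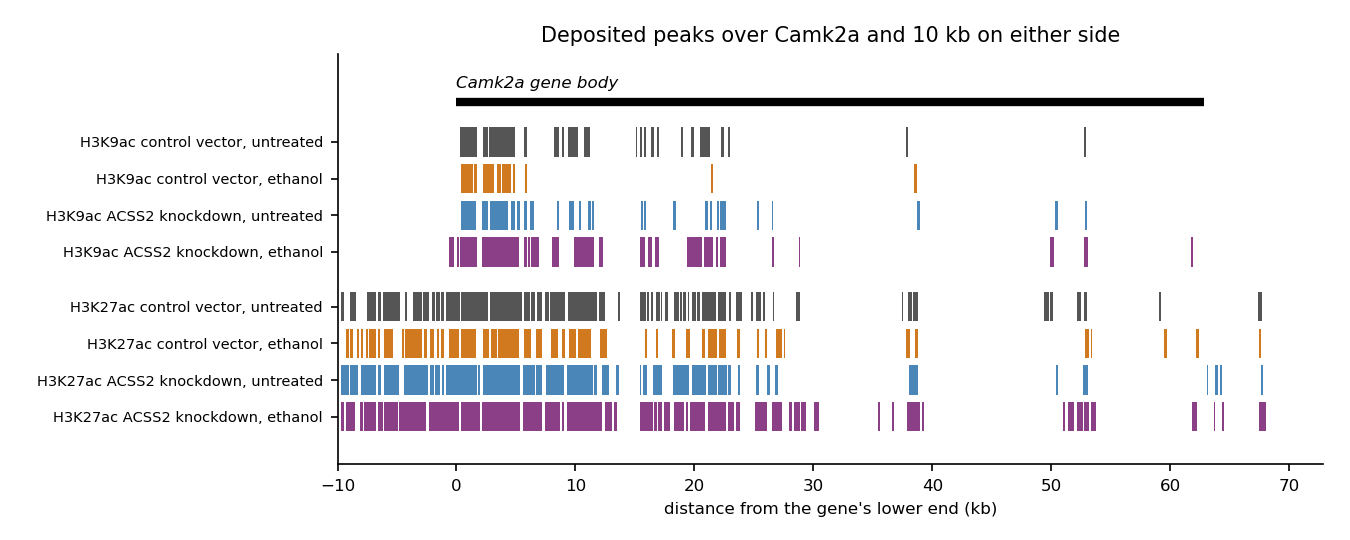
Each row is 1 deposited list and each block a peak, placed by distance from the lower end of Camk2a in kb, with the gene body as the black line. Beyond the first 10 kb, H3K9ac of ethanol-treated control mice shows 2 narrow peaks inside the gene, 139 and 239 bp wide, where the other lists show many.

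Camk2b, the beta subunit gene, spans 96.7 kb (chr11:5969629-6066357) and is read from its upper to its lower end by coordinate. H3K9ac covered 5240 bases in 11 peaks in untreated control mice, 3334 in 10 peaks with ethanol, 6747 in 20 peaks in untreated knockdown mice and 9130 in 27 peaks in knockdown mice with ethanol. Both knockdown lists were above both control lists. The same held for H3K27ac, with 25496, 24653, 34955 and 43840 bases. Most H3K9ac of the control-vector lists lay in the last 10 kb around the start site, with 3049 and 2175 bases, and 3106 and 3701 bases were there in the knockdown lists. Further inside the gene H3K9ac was scattered over small peaks, 1980 bases in untreated control mice, 853 with ethanol, 3592 in untreated knockdown mice and 5164 in knockdown mice with ethanol. The main peak just inside the start site was 2549 bp wide in untreated control mice and was cut into pieces of 633, 322 and 677 bp with ethanol. It measured 2159 bp in untreated knockdown mice and 2710 bp in knockdown mice with ethanol. For H3K27ac 75.2% to 79.9% of the bases lay inside the gene and more than 10 kb from the start-site end. A merged H3K27ac region of 3562 bp that begins 31268 bp above the lower end (chr11:6000897-6004458) held 3042, 2811, 2673 and 3543 bases, and another of 3940 bp (chr11:6018965-6022904) held 2404, 3205, 3295 and 3620.

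**Figure D3:**
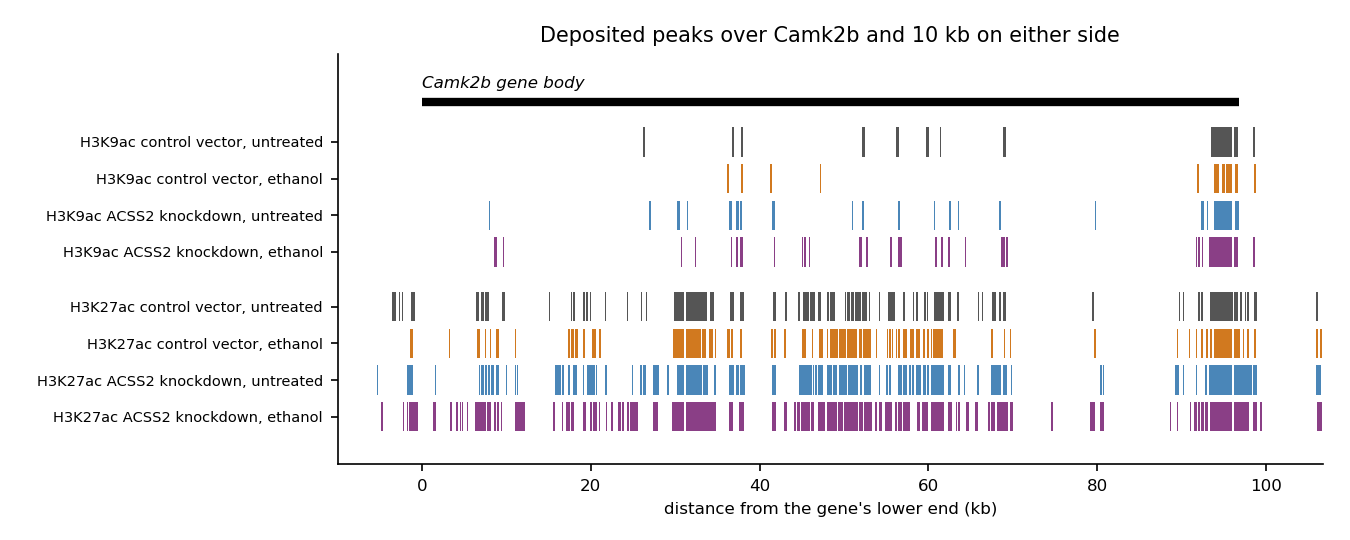
Rows are the 8 deposited lists and blocks are peaks, by distance from the lower end of Camk2b in kb. The start site is at the right, where all 8 lists have peaks on either side of it, and the 2 H3K27ac knockdown rows are the fullest, with 34955 and 43840 bases in peaks.

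Camk2g, the gamma subunit gene (chr14:20734873-20794157), is 59.3 kb long. H3K9ac covered 5483 bases in untreated control mice, 2870 with ethanol, 4039 in untreated knockdown mice and 4925 in knockdown mice with ethanol, and H3K27ac covered 9071, 8394, 11543 and 15327 bases. Its strongest peak by the authors' score was the same one in all 8 lists and straddled the lower end. It measured 1506, 1351, 1536 and 1315 bp for H3K9ac and lay mostly over the neighbouring gene Ndst2, whose upper end is at 20734570. Only 257, 263, 127 and 18 of these bases were inside Camk2g, so the peak cannot be assigned to Camk2g alone. At the upper end, H3K9ac peaks of the 4 lists merged into a region of 2068 bp (chr14:20792045-20794112). This region held 1931 bases in 1 peak in untreated control mice and 988 in 1 peak with ethanol. It held 1447 bases in 2 peaks in untreated knockdown mice and 1967 in 2 peaks in knockdown mice with ethanol. A smaller peak just above it was present in all 4 lists at 446, 239, 328 and 278 bp. Its merged region starts 23 bp beyond the upper end of Camk2g and overlaps the long noncoding RNA gene Gm30108. The peak shared with Ndst2 thus differed little between the 2 control-vector lists, at 1506 and 1351 bp, while the wide one near the other end was 1931 and 988 bp wide. Between the ends H3K9ac was sparse, at 1662, 292, 728 and 1477 bases, and H3K27ac was wider, at 5104, 4765, 7422 and 10782 bases.

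Camk2d, the delta subunit gene (chr3:126595487-126846326), is 250.8 kb long, and all of its H3K9ac lay in the first 10 kb from the lower end, in every list. In untreated control mice this was 1 peak of 1706 bp over the promoter. With ethanol it was 3 peaks of 373, 512 and 168 bp, or 1053 bases. In untreated knockdown mice peaks of 1829 and 197 bp covered 2026 bases, and in knockdown mice with ethanol 1 peak covered 2081. Ethanol-treated control mice gave the one list of the 4 in which no piece of the domain reached 1000 bp. H3K27ac covered 2450, 1736, 2404 and 2457 bases, of which 2025, 1736, 2075 and 2239 lay in the same first 10 kb. Camk2d and Camk4 each had more peaks but fewer bases of H3K9ac in ethanol-treated control mice than in untreated ones, since the domain was called in more pieces.

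Camk4 (chr18:32934941-33195767), the gene of the nuclear kinase, is 260.8 kb long and its H3K9ac was also a single domain, centred 4346 to 4614 bp inside the lower end by its strongest peak. H3K9ac consisted of peaks of 1215 and 173 bp in untreated control mice, of 178, 432 and 342 bp with ethanol, of 1365 bp in untreated knockdown mice and of 1622 bp in knockdown mice with ethanol. The totals were 1388, 952, 1365 and 1622 bases. H3K27ac covered 2319 bases in untreated control mice, 1251 in a single peak with ethanol, 2383 in untreated knockdown mice and 2511 in knockdown mice with ethanol. Those peaks merged into 7 regions, and the first 10 kb of the gene held 83.5% of the H3K27ac bases in untreated control mice, all of them with ethanol, and 69.4% and 73.7% in the knockdown lists. The other 3 lists held small H3K27ac peaks centred 20273 to 27107 bp inside the lower end, which were not called in ethanol-treated control mice, and untreated knockdown mice alone had another, 128004 bp inside. In ethanol-treated control mice 56.8% of the H3K9ac bases of Camk4 were also in H3K27ac peaks. The share was 100% in untreated control mice, and 91.6% and 86.5% in knockdown mice without and with ethanol.

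**Figure D4:**
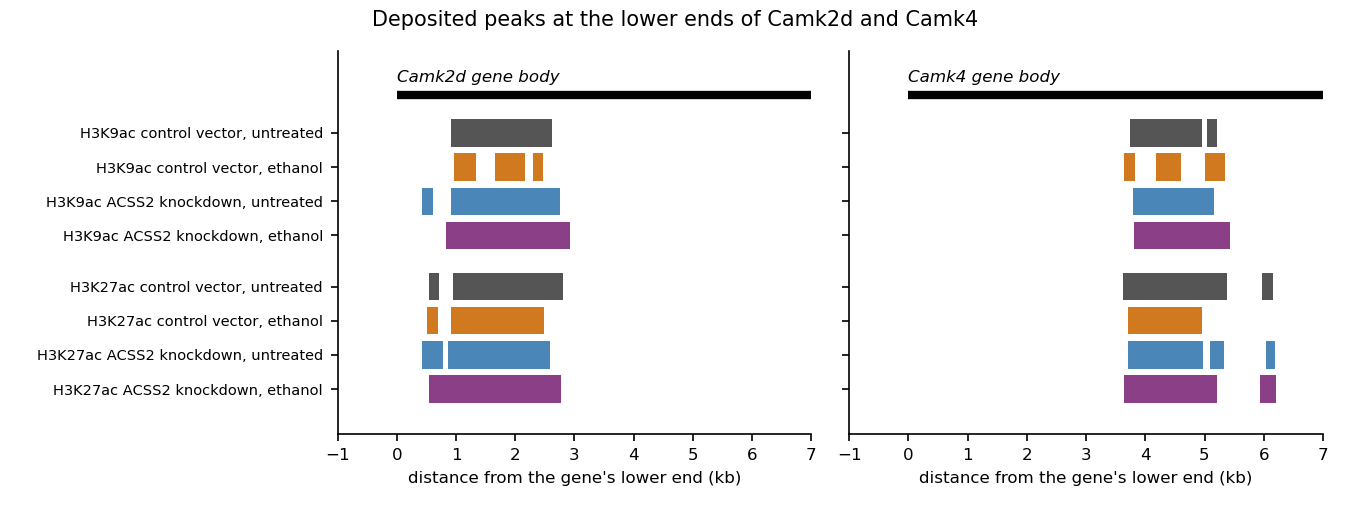
Peaks of the 8 lists by distance from the lower end in kb, for Camk2d on the left and Camk4 on the right. In the H3K9ac row of ethanol-treated control mice each domain is in 3 pieces, the widest 512 bp at Camk2d and 432 bp at Camk4, while the other 3 H3K9ac rows have 1 peak of 1215 bp or more.

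The first comparison asked what ethanol does to histone acetylation when ACSS2 is intact, by setting ethanol-treated against untreated mice with the control vector. All 5 kinase genes had fewer H3K9ac bases with ethanol, as did 92.5% of the 11992 genes with at least 1000 bases in peaks in either list. Camk4, at 952 bases with ethanol, met that minimum through the untreated list alone. The size differed: Camk2a had 2.42-fold fewer bases (log2 ratio −1.27), Camk2g 1.91-fold (−0.93), Camk2d 1.62-fold (−0.70), Camk2b 1.57-fold (−0.65) and Camk4 1.46-fold (−0.54). Hence 4 of 5 passed a 1.5-fold limit downwards, where 30.6% of all genes did, and none upwards, where 0.125% did. Camk2a stood at percentile 4.04 of all log2 ratios and Camk2g at 10.5, and the other 3 between 21.8 and 34.4. The median log2 ratio was −0.70 for the 5 genes and −0.41 for all genes. The whole list was shorter by 0.49 on the same log2 scale, and after division by the list totals the ratios were −0.79 for Camk2a, −0.45 for Camk2g, −0.21 for Camk2d, −0.16 for Camk2b and −0.05 for Camk4. All 5 signs held under that division, and Camk2a alone stayed past 1.5-fold. Camk2g ratios here and in the comparisons below include the peak mostly over Ndst2, at 1506 bp without and 1351 bp with ethanol here. They therefore do not describe Camk2g alone. Inside Camk2g beyond its first 10 kb from the lower end, H3K9ac covered 3531 bases without and 1280 with ethanol. Among peaks with a score of 5 or more the order changed, with −1.68 for Camk4 below −1.28 for Camk2a, and with lists of equal length Camk2b was at −0.09. Neuron markers moved with the kinase genes, with 19346 bases of H3K9ac summed over the 5 of them without and 12100 with ethanol. H3K9ac over 3 oligodendrocyte markers also went from 11270 to 7042 bases, over 3 inhibitory neuron markers from 2915 to 1273 and over 3 astrocyte markers from 2838 to 2302. Over 2 endothelial markers it rose from 200 to 430, and over 3 microglial markers it went from 226 to 0. H3K27ac fell over the neuron (74072 to 61098), inhibitory neuron (3092 to 2922) and microglial markers (1895 to 1201). It rose over the oligodendrocyte (41584 to 42989), astrocyte (4696 to 6254) and endothelial markers (626 to 1172). The part of these cell types in the result was not tested. Fewer cells of a type and less acetylation per cell cannot be told apart in tissue.

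Of the 44 H3K9ac peaks over the 5 genes in untreated control mice, 29 had no overlapping peak with ethanol. This share of 65.9% (95% Wilson interval 51.1% to 78.1%, counting error only) compares with 38% of all peaks of the list. It was lower, and below this interval, when the lists were cut to equal length, as given in the closing section. The 29 peaks comprised 16 of 20 at Camk2a, 7 of 11 at Camk2b and 6 of 10 at Camk2g, and none at Camk2d or Camk4. The peaks without a counterpart were small, with a median width of 230 bp against 500 bp for the rest, and a median score of 4.68 against 15.8. In the other direction 6 of 29 peaks, or 20.7%, were seen with ethanol alone, against 11.7% of the list. H3K27ac gave the same sign, with a larger difference than H3K9ac at Camk4 and smaller ones at the other 4 genes. All 5 genes had fewer bases, against 55.9% of 13058 genes, with log2 ratios of −0.89 for Camk4, −0.50 for Camk2d, −0.42 for Camk2a, −0.11 for Camk2g and −0.05 for Camk2b, whose sign turned to 0.02 on division by the list totals. Only Camk4 passed 1.5-fold downwards, where 4.38% of genes did, and it stood at percentile 1.20 of all log2 ratios. None passed it upwards, where 2.86% did. The median of the 5 was −0.42 and that of all genes −0.04. Of 142 H3K27ac peaks 53 (37.3%) had no counterpart with ethanol, near the 34.5% of the whole list, and 40 of 133 (30.1%) were seen with ethanol alone, near its 30.5%.

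With ACSS2 knocked down, ethanol went with more bases in peaks over all 5 genes for both marks. H3K9ac log2 ratios were 0.73 for Camk2a, 0.44 for Camk2b, 0.29 for Camk2g, 0.25 for Camk4 and 0.04 for Camk2d. Camk2d became −0.11 when divided by the list totals, and Camk2g −0.28 when the 4 lists were reduced to their best 31042 peaks each. None of the 5 genes had fewer bases, against 34.3% of 12394 genes. Camk2a alone passed 1.5-fold, upwards, as did 7.21% of genes, while 1.33% passed it downwards. On division by the list totals Camk2a was at 0.58, below that limit, and no gene was past it. Camk2a stood at percentile 95.9 and Camk2b at 86.6. The median of the 5 genes was 0.29 and of all genes 0.10, and the list total differed by 0.15. Summed H3K9ac moved the same way over the 5 neuron markers, from 19367 to 28054 bases, over the oligodendrocyte markers, from 5575 to 9849, and over the inhibitory neuron markers, from 2804 to 3104, and the other way over the astrocyte markers, from 3631 to 3317. Over the endothelial markers it went from 145 to 414 and over the microglial markers from 148 to 0. Summed H3K27ac fell over the endothelial markers, from 1975 to 1917, and rose over the other sets. The part of these markers in the result was not tested. Of 60 H3K9ac peaks, 29 (48.3%) had no counterpart without ethanol, against 31.6% of the list, and 17 of 54 (31.5%) were absent with ethanol, against 21.3%. Camk2b held 17 of the 29 and Camk2a 9. For H3K27ac the ratios ran from 0.03 (Camk2d) and 0.08 (Camk4) to 0.33 (Camk2b), 0.35 (Camk2a) and 0.41 (Camk2g). No kinase gene had fewer bases, against 19.7% of 13968 genes, and none passed 1.5-fold, which 10.1% of genes did upwards and 0.53% downwards. The list total itself differed by 0.26, and on division by it Camk2d and Camk4 turned to −0.23 and −0.19. Of 157 peaks 50 (31.8%) were seen with ethanol alone, below the 38.6% of the list, and 22 of 147 (15.0%) without ethanol alone, below its 23.8%.

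**Figure D5:**
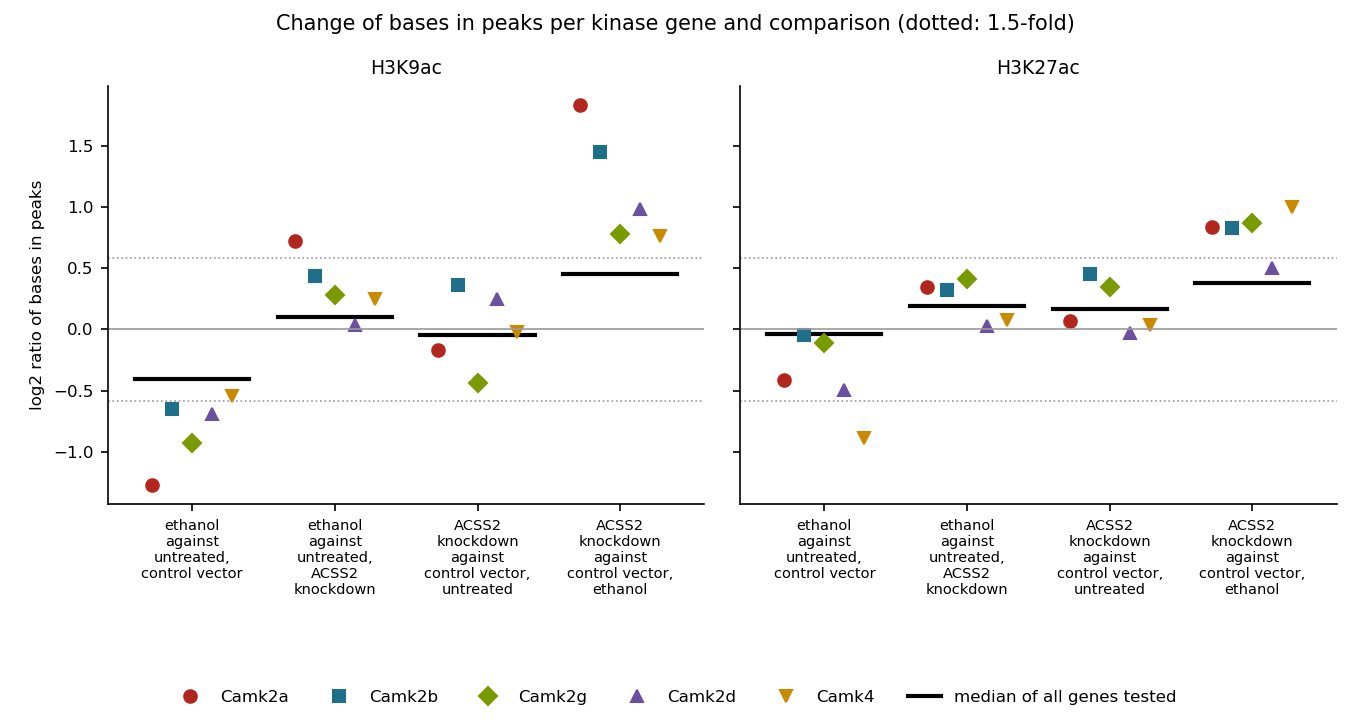
Points are log2 ratios of bases in peaks for each gene in the 4 comparisons of each mark, the black bars the median of all genes tested, and the dotted lines 1.5-fold in either direction. Camk2a has the lowest H3K9ac point for ethanol with the control vector (−1.27) and the highest for ethanol with the knockdown (0.73).

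Without ethanol, knockdown and control-vector mice differed less over these genes. H3K9ac was lower in the knockdown at Camk2g (log2 ratio −0.44), Camk2a (−0.17) and Camk4 (−0.02), and higher at Camk2b (0.36) and Camk2d (0.25), so 3 of 5 had fewer bases, as did 57.2% of 12304 genes. Division by the list totals moved Camk4 to 0.03 and left the other 4 signs. No kinase gene passed 1.5-fold, where 5.03% of genes did downwards and 1.89% upwards. Camk2b stood at percentile 93.1 and Camk2g at 9.34. Oligodendrocyte markers had 11270 bases of H3K9ac in control and 5575 in knockdown mice, while neuron markers had 19346 and 19367, inhibitory neuron markers 2915 and 2804, and astrocyte markers 2838 and 3631. Endothelial markers had 200 and 145, and microglial markers 226 and 148. Summed H3K27ac was higher in the knockdown for all these marker sets, oligodendrocyte markers included (41584 and 43129 bases). Their part in these differences was not tested. Peaks came and went even so: 17 of 44 (38.6%) were absent in the knockdown and 25 of 54 (46.3%) seen there alone, against 26.7% and 24.4% of the lists. Of those 25, Camk2b held 14 and Camk2a 10. H3K27ac was higher in the knockdown at Camk2b (0.46), Camk2g (0.35), Camk2a (0.07) and Camk4 (0.04) and lower at Camk2d (−0.03). Hence 1 of 5 genes had fewer bases, against 24.7% of 13394 genes, and none passed 1.5-fold, where 0.821% did downwards and 10.1% upwards. The knockdown list was longer by 0.25, and with that divided out Camk2a turned to −0.18 and Camk4 to −0.21, and Camk2d stood at −0.28. Of 142 peaks 35 (24.6%) were absent in the knockdown and 50 of 147 (34.0%) seen there alone, near the 26.1% and 38.5% of the lists.

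Under ethanol the knockdown and control lists differed at every kinase gene. All 5 had more H3K9ac in the knockdown, with 3.57-fold as many bases at Camk2a (log2 ratio 1.83), 2.74-fold at Camk2b (1.45), 1.98-fold at Camk2d (0.98), 1.72-fold at Camk2g (0.78) and 1.70-fold at Camk4 (0.77). All 5 were past 1.5-fold upwards, as were 36.3% of 12143 genes, whereas 0.14% were past it downwards and 6.14% had fewer bases. Camk4, at 952 and 1622 bases, met the minimum of 1000 through the knockdown list alone. Camk2a stood at percentile 97.9 and Camk2b at 95.7. The list totals differed by 0.58, and with this divided out the ratios were 1.25, 0.87, 0.40, 0.20 and 0.19, so that 2 of the 5 stayed past 1.5-fold. The 0.20 of Camk2g includes the peak mostly over Ndst2, at 1351 bp in control and 1315 bp in knockdown mice. Inside Camk2g beyond its first 10 kb from the lower end, H3K9ac covered 1280 and 3332 bases. The median of the 5 was 0.98 and of all genes 0.46. Marker genes of several cell types again moved alongside in H3K9ac, those of neurons from 12100 to 28054 bases, of inhibitory neurons from 1273 to 3104, of oligodendrocytes from 7042 to 9849 and of astrocytes from 2302 to 3317. Endothelial markers went from 430 to 414, and microglial markers had no H3K9ac in either list. Summed H3K27ac was higher in the knockdown for all these marker sets. The part of these markers was not tested. Of 60 H3K9ac peaks 46 (76.7%, interval 64.6% to 85.6%) were seen in the knockdown alone, against 43.5% of the list. These were 18 of 22 peaks at Camk2a, 22 of 27 at Camk2b and 6 of 9 at Camk2g. Conversely 5 of 29 (17.2%) were seen in control mice alone, against 10.6%. H3K27ac was also higher at all 5 genes, with log2 ratios of 1.00 for Camk4, 0.87 for Camk2g, 0.84 for Camk2a, 0.83 for Camk2b and 0.50 for Camk2d. Past 1.5-fold upwards were 4 of 5 genes, against 30.5% of 13872 genes, 0.382% of which were past it downwards and 9.38% of which had fewer bases. On division by the list totals the ratios were 0.42, 0.28, 0.25, 0.24 and −0.09 in the same order, and none of the 5 was past 1.5-fold. Of 157 peaks 64 (40.8%) were seen in the knockdown alone, against 48.4%, and 8 of 133 (6.02%) in control mice alone, against 18.6%. The 2 comparisons of ethanol and the 2 of the knockdown use the same 4 lists, so they are not independent of each other.

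When the peaks of the 4 lists were merged, the 5 genes held 83 H3K9ac regions, of which 13 (15.7%) were in all 4 lists and 44 (53.0%) in 1 list, against 36.8% and 42% of 51682 regions genome-wide. The regions in all 4 lists were wide, with a median of 1672 bp, and those in 1 list narrow, with a median of 183 bp. Missing from ethanol-treated control mice alone were 9 regions (10.8%, against 5.8% genome-wide), 5 of them at Camk2a. In ethanol-treated knockdown mice alone were 19 (22.9%, against 16.8%), 11 of them at Camk2b. H3K27ac formed 168 regions, 51 of them (30.4%) in all 4 lists and 30 (17.9%) in ethanol-treated knockdown mice alone, near the 27.1% and 20.9% of 149468 regions genome-wide. Of the 83 H3K9ac regions 81 met H3K27ac in some list, while 111 of the 168 H3K27ac regions met no H3K9ac in any list. The same shares over all regions are not given, so this nesting is not shown to be particular to these genes. Of all H3K9ac bases over the 5 genes, 89.9%, 89.5%, 88.6% and 92.2% were in H3K27ac peaks of the same condition, against 82.6%, 88.6%, 84.3% and 87.6% genome-wide. Of the H3K27ac bases 31.5%, 19.3%, 25.1% and 29.1% carried H3K9ac, against 46.5%, 37.4%, 38.4% and 36.8% genome-wide. By gene this share was at most 19.3% at Camk2b, 17.9% to 35.5% at Camk2a, 29.9% to 53.2% at Camk2g and 60.7% to 79.0% at Camk2d.

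The rest of the calmodulin pathway was taken as a list of 39 genes: calmodulins, upstream kinases, the Camk1 family, other calmodulin-dependent kinases and enzymes, the kinase-like vesicle protein gene Camkv, Camk2 inhibitors, calmodulin binding proteins, calcineurin, calcium channels and receptors, and synaptic and nuclear targets. With ethanol and the control vector, 32 of the 33 genes that reached 1000 bases had fewer H3K9ac bases, where 92.5% of all genes did. Of them 18 passed 1.5-fold, where 30.6% of all genes did, and the median log2 ratio was −0.62 beside −0.41 for all genes. The lowest was Gap43, a growth cone protein that binds calmodulin, with 1040 bases of H3K9ac without and none listed with ethanol, and the highest Creb1, the gene of CREB, with 2062 and 2282. Gap43 and the nuclear target Crtc1 (2335 and 835) met the minimum of 1000 bases through the untreated list alone. They could only count as lower, and both are among the 18. In the knockdown 10 of 35 genes had fewer H3K9ac bases with ethanol, near the 34.3% of all genes, and 4 passed 1.5-fold upwards, against 7.21%. Dapk1, a calmodulin-dependent death-associated kinase, was the lowest at 1925 and 1436 bases, and Pcp4, which modulates calmodulin, the highest at 560 and 1143, so that it met the minimum through the ethanol list alone. The calcineurin gene Ppp3cb (962 and 1560) also met it through that list alone. Pcp4 and Ppp3cb could only count as higher there, and both are among the 4. Knockdown against control without ethanol split the list 17 to 17, where 57.2% of all genes had fewer bases, and 1 gene passed 1.5-fold, downwards, where 5.03% did. Lowest was Camk2n1, an inhibitor of CaMKII (4564 bases in control, 2965 in knockdown mice), and highest Dapk1 (1509 and 1925). Ppp3cb (1329 and 962) met the minimum through the control list alone, and Syn1 (978 and 1115) through the knockdown list alone. Under ethanol all 35 genes had more H3K9ac in the knockdown, where 6.14% of all genes had less, and 23 were past 1.5-fold, where 36.3% were. Creb1 differed least, at 2282 and 2361 bases, and Gap43 most, with none listed and 2158. Gap43, Pcp4 (0 and 1143), Syn1 (307 and 1053) and Crtc1 (835 and 2633) met the minimum there through the knockdown list alone. They could only count as higher, and all of them are among the 23.

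For H3K27ac, 26 of 35 pathway genes had fewer bases with ethanol and the control vector, against 55.9% of all genes, and 7 were past 1.5-fold, against 4.38%. Gria1, an AMPA receptor subunit that CaMKII phosphorylates, was the lowest at 24131 and 11374 bases, and Camkk2, which activates CaMKIV, the highest at 3365 and 4706. Camk1g (924 and 1240) met the minimum through the ethanol list alone. In the knockdown 6 of 38 genes had fewer H3K27ac bases with ethanol, near the 19.7% of all genes, and 6 were past 1.5-fold upwards, against 10.1%. They ran from Pnck (1059 and 851 bases), a Camk1 family kinase, to its relative Camk1g (1720 and 3071). Pnck met the minimum through the untreated list alone, and Nos1 (740 and 1011) through the ethanol list alone. Without ethanol 7 of 37 genes had fewer H3K27ac bases in the knockdown, against 24.7% of all genes, and 8 were past 1.5-fold upwards, against 10.1%. They ran from the calcineurin subunit gene Ppp3cb (1459 and 1103) to Pnck (495 and 1059). Pnck, Camk1g (924 and 1720) and Gap43 (897 and 1575) met the minimum through the knockdown list alone. They could only count as higher, and all of them are among the 8. Under ethanol all 37 genes had more in the knockdown, where 9.38% of all genes had less, and 22 were past 1.5-fold, where 30.5% were. They ran from Ppp3cb (1018 and 1030) to Gria1 (11374 and 46095). Nos1 (273 and 1011) and Gap43 (898 and 1657) met the minimum through the knockdown list alone. They could only count as higher, and both are among the 22. Medians of the list in these 4 comparisons were −0.22, 0.29, 0.29 and 0.76, beside −0.04, 0.19, 0.17 and 0.38 for all genes.

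Genes most like each kinase gene were sought by the distance between log2 bases in peaks over the 8 lists with 100 bases added, after each gene's own mean per mark was removed, among genes with 1000 bases or more in each list. Closest to Camk2a was Msra, with 7521, 2905, 6212 and 10159 bases of H3K9ac, then Rtn4rl2 and Ptk2b. Clmp, Sort1 and Olfm1 were closest to Camk2b, the last with 7219, 4949, 9167 and 12581. Npy1r and Npy5r, neighbouring neuropeptide Y receptor genes, and Cabp1 were closest to Camk2d, and the distance of 0.08 to Npy1r was the smallest of all. Camk2g was closest to Stat5a, Tubb2a and Epb41l1, and Camk4 to Zfpm2, St3gal5 and Rpap3. These distances were 0.08 to 0.30, where the median gene was at 0.68 to 1.14 and the kinase genes were 0.47 (Camk2d and Camk4) to 0.87 (Camk2a and Camk4) from each other. The likeness is a description over 8 lists, in which genes share each list's total.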

How the data were processed

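The authors deposited 8 peak lists for H3K9ac and H3K27ac, 1 for each mark and condition, in 6 columns with no header. The labels of 3 replicates name the same list, how they were combined is not stated in the labels, and the depth is unknown. Per the labels, calling was against input with a false discovery rate limit of 0.001. Named in the submitters' processing notes, with no roles, are MACS2, bedtools, STAR 2.5.2a, bcl2fastq and the GRCm38 (mm10) build. The score in the deposited lists was read as a −log10 q-value and served to rank peaks of 1 list and to set the stricter limit.

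Groups came from the sample titles. Gene coordinates came from a RefSeq table of the same build, which gives no strand or exons, so gene ends are called lower and upper by coordinate, and promoters came from RefSeq sequences in GRCm38.p6. Bases in at least 1 peak were summed over each gene with 10 kb on either side (Python 3.11.15, numpy 2.4.6, pandas 2.3.3), and the functions were checked on simulated intervals. Log2 ratios had 1 base added, and genes needed 1000 bases in either list. A peak was unmatched when no base of it overlapped the other list. Shares have 95% Wilson intervals. With 1 list per group no test was made.

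The members and lists were chosen with earlier results of these data known. Named pathway genes are those with the lowest and highest ratio in each comparison, and the 3 nearest genes are named for each member. The alternatives were a score of 5 or more, lists of equal length, a 2 kb or no flank, division by the list total, numbers of peaks, 50% overlap and a fold of 2.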

Additional observations from a re-analysis of the deposited data

Results flagged for a closer look

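At Camk2a the H3K9ac difference between ethanol-treated and untreated mice had opposite signs in the vector groups. The log2 ratio of bases in peaks was −1.27 with the control vector (9264 bases without and 3831 with ethanol) and 0.73 with the ACSS2 knockdown (8250 and 13666). Both are past 1.5-fold. Each value comes from 2 lists and the difference between them was not tested. Dividing by the list totals gave −0.79 and 0.58, the second of which is under the 1.5-fold limit.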

How the results depend on the processing

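No paired analysis was possible because each group has 1 deposited list, and for the same reason no replicate could be left out. The number of the 5 genes with fewer bases in peaks stayed within 1.5 times its value in 33 of 48 alternatives. Of 200 alternatives for the log2 ratio of single genes, 95 stayed within the 95% Wilson interval of its base counts and 105 did not. Bases of 1 peak are called together and are not independent, so this interval is too narrow and measures no spread between mice. Counting peaks in place of bases gave 3 genes for H3K9ac with ethanol and the control vector (5 by bases), 2 with ethanol and the knockdown (0), 2 for knockdown against control under ethanol (0), and for H3K27ac 3 with ethanol and the control vector (5), 3 with ethanol and the knockdown (0) and 2 for the knockdown without ethanol (1). Division by the list totals gave 1 for H3K9ac with ethanol and the knockdown (0), and for H3K27ac 2 in that comparison (0), 3 for the knockdown without ethanol (1) and 1 under ethanol (0). For H3K9ac with ethanol and the knockdown, a score of 5 or more and lists of equal length each gave 1 (0). For H3K27ac and the knockdown without ethanol, a 2 kb flank and the gene body alone each gave 2 and lists of equal length 3 (1). A fold of 2 left 1 gene lower for H3K9ac with ethanol and the control vector (4 at 1.5-fold), none higher with ethanol and the knockdown (1) and 2 higher for the knockdown under ethanol (5). For H3K27ac it left none lower with ethanol and the control vector (1) and 1 higher for the knockdown under ethanol (4). With lists of equal length, 48.0% of the H3K9ac peaks were lost with ethanol and the control vector in place of 65.9%. At a score of 5 or more, 5.56% of the H3K9ac peaks of ethanol-treated control mice were absent from the knockdown, in place of 17.2%. The whole-list shares at these settings are not given, so neither share can be set beside its list. Except where the alternative's own construction shows it (counting peaks or dividing by a total), the cause was not tested. Depth is unknown, so its limits could not be given.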
